A study of Mus musculus with 4 samples.

Results

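Cells with transcripts of Ccr7 and Fscn1, genes known from mature, migratory dendritic cells, were chosen from mouse heart grafts by a gate on measured counts. Of the 76 cells chosen, 25 were rich in transcripts of other cell types and are described apart. A cell entered when it had over 200 detected genes, under 20% of its unique molecular identifiers (UMIs, each standing for 1 captured transcript) from mitochondrial genes, at least 5 UMIs of H2-Aa, at least 1 UMI each of Ccr7 and Fscn1, fewer than 3 UMIs of C1qa and 0 UMIs of Cd3e, Cd79a and Cdh5. The gate held 76 of the 44626 cells that passed the limits on detected genes and mitochondrial UMIs, or 0.170% (95% Clopper-Pearson interval 0.134 to 0.213). The levels of these 7 genes describe the choice of cells and are not a result.

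Grafts were hearts placed in the abdomen of adult male C57BL/6J recipients and taken on day 5, from BALB/c donors (labelled Balb/C) in 2 allogeneic grafts and from C57BL/6J donors in 2 syngeneic grafts, with no drug or engineered allele named for any graft. Whole grafts were digested without a stated sort, so that donor and recipient cells entered together, and single-cell 3′ libraries were made in droplets. The counts stand in a single matrix in which barcodes end in a suffix from 1 to 4, and neither labels nor files pair a suffix with a graft. The cells of each suffix are called libraries 1 to 4 here, the 4 together count as 1 sample, and no allogeneic graft is set against a syngeneic one, so that values per library are a description and no value here has a test.

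Dendritic cells take up antigen in tissues and present it to T cells. On maturation they lower the receptors for uptake, raise costimulatory and checkpoint ligands, and gain CCR7, the receptor for the lymphatic chemokines CCL19 and CCL21, which guides them to draining lymph nodes. Fascin, the product of Fscn1, bundles actin in their dendrites, and non-canonical NF-kB signaling through RelB and the p52 product of Nfkb2 is a known route to this state.

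On the GRCm38 assembly, which mm10 names, Ccr7 (ENSMUSG00000037944) lies at chr11:99144196-99155077 on the minus strand, Fscn1 (ENSMUSG00000029581) at chr5:142960343-142973185 on the plus strand and Tbc1d4 (ENSMUSG00000033083), which encodes a Rab GTPase-activating protein, at chr14:101442360-101609191 on the minus strand. All 3 are protein-coding genes. Fscn1 by itself did not set the cells apart. It had a UMI in 64.6% of 13067 cells with at least 3 UMIs of the endothelial gene Cdh5, whereas Ccr7 had one in 1.23%, and these cells had a median of 7516 UMIs.

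Libraries 1 to 4 held 96020294, 115162601, 138892048 and 166079145 UMIs in 13112, 13907, 13500 and 13305 deposited cells. Of the gated cells, 9 were in library 1, 0 in library 2, 5 in library 3 and 62 in library 4. These were 0.0872%, 0%, 0.0508% and 0.549% of the kept cells of each library, and 0 of 13154 cells in library 2 allows a share of up to 0.0228%. Library 4 was thus the main source of the cells and also the deepest library, with a median of 9249 non-mitochondrial UMIs per deposited cell against 4116, 4477 and 5325.5 in libraries 1 to 3. The part of depth in the shares per library was not tested. A gated cell had a median of 14311 UMIs (range 2198 to 66510) and 3266.5 genes. Of the barcode sequences, 308 occurred in more than 1 library, and 0 gated cells carried one of them. Simulated doublets, scored in each library with the top 5% of cells marked, marked 0 of the 76 cells, which allows a share of marked cells of up to 3.95%. This limit is on cells marked and not on doublets, since the share of doublets that the scoring finds among rare cells was not tested.

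The 76 cells were not of 1 kind. In 10 cells, transcripts of a list of 10 fibroblast genes (Dcn, Bgn, Col1a1, Col1a2, Col3a1, Gsn, Pdgfra, Lum, Mgp and Sparc) made up 2.91 to 9.01% of UMIs, whereas the highest share among the other 66 cells was 0.407%. In another 15 cells, the 30 genes of a monocyte and macrophage list made up 1.09 to 2.51%, and the highest share among the other 51 cells was 0.503%. Limits of 1% for the first list and 0.75% for the second, set after these values were seen, divided the gate into 10 fibroblast-list-rich, 15 macrophage-list-rich and 51 remaining cells. Some of the 10 fibroblast-list-rich cells were above the second limit too, with up to 2.24% of UMIs from the monocyte and macrophage list. Whether they were doublets was not tested. All 10 fibroblast-list-rich cells and 14 of the 15 macrophage-list-rich cells were in library 4, and the other one was in library 1. The 51 remaining cells, 0.114% of the kept cells, were split 8, 0, 5 and 38 over libraries 1 to 4.

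**Figure D1:**
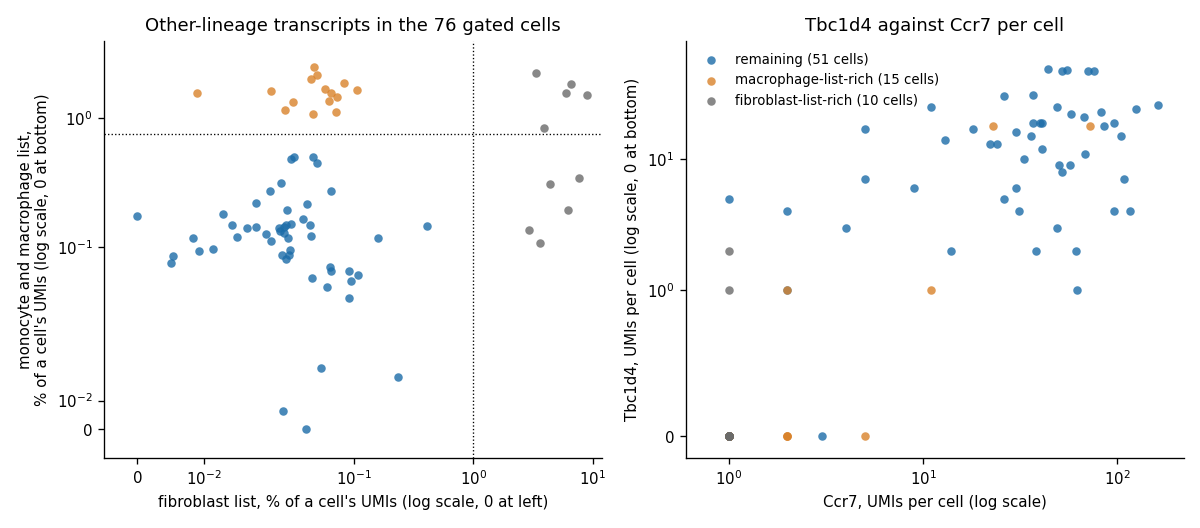
Each point is 1 of the 76 gated cells. Left, the share of a cell's UMIs from the fibroblast list (x axis, %) and from the monocyte and macrophage list (y axis, %), both on log scales that include 0, with dotted lines at 1% and 0.75%. Cells right of the vertical line were counted as fibroblast-list-rich whatever their y value. Right, UMIs per cell of Ccr7 (x axis) and Tbc1d4 (y axis) on log scales. The 10 fibroblast-list-rich cells all sit at 1 Ccr7 UMI, and the 51 remaining cells reach 162.

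Ccr7, as a gene of the gate, is described here with no weight as a result. All 10 fibroblast-list-rich cells had exactly 1 Ccr7 UMI at a median depth of 45396.5 UMIs, and 2 of them had a UMI of Tbc1d4. In the 15 macrophage-list-rich cells the median was 2 Ccr7 UMIs (range 1 to 72), with 7 cells at 1, at a median depth of 14729 UMIs. The 51 remaining cells had a median of 41 Ccr7 UMIs (range 1 to 162), 24 Fscn1 UMIs and 13 Tbc1d4 UMIs at a median depth of 11918 UMIs.

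Without the condition on Ccr7, the gate held 142 fibroblast-list-rich cells, 84 macrophage-list-rich cells and 64 others. Ccr7 was detected in 7.04% of the first (95% interval 3.43 to 12.6), 17.9% of the second (10.4 to 27.7) and 79.7% of the third (67.8 to 88.7). Of 678 endothelial cells of library 4, with at least 3 Cdh5 UMIs and so outside the gate, 6.49% had a Ccr7 UMI at a median depth of 12170 UMIs and a pooled level of 17.0 CPM. The 142 cells were deeper, with a median of 37490 UMIs, and their share is not read as expression. The source of these UMIs was not tested. At least 3 Ccr7 UMIs were found in 0 of the 142, 4 of the 84 and 48 of the 64 cells.

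Tbc1d4, which the gate did not use, varied along its edges. It was detected in 16.7% of the 18 cells with 1 Ccr7 UMI, in 50% of the 6 cells with 2 and in 96.2% of the 52 cells with 3 or more, against 45 of the 214 cells that met all conditions but had no Ccr7. With a single Fscn1 UMI, 23.1% of 13 cells had Tbc1d4, near the 23.9% of 176 cells just outside with none. Of the 6 cells with 5 to 9 H2-Aa UMIs 50% had it, and so did 64.3% of the 14 cells just outside with 1 to 4. Tbc1d4 was found in 57.1% of the 14 cells with 2 C1qa UMIs and in 50% of the 6 cells just outside with 3 or 4. The gate therefore left out some cells rich in Tbc1d4, among them 2 cells that both had it and failed only on mitochondrial UMIs.

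Single transcripts of the lists that chose the small sets are given here as a description of that choice, as counts per 1000000 non-mitochondrial UMIs (CPM) after pooling cells. Fibroblast-list-rich cells had 10404 CPM of the collagen gene Col3a1 and 4559 CPM of decorin (Dcn), against 70.8 and 55.4 CPM in the 51 remaining cells. Genes outside the list differed too, with 13270 CPM of Timp1 and 3612 CPM of Cxcl14, against 30.8 and 4.61 CPM. Macrophage-list-rich cells had 5314 CPM of lysozyme (Lyz2) and 1115 CPM of the lipopolysaccharide co-receptor Cd14, against 226 and 32.3 CPM. H2-Ab1, a class II chain, was at 432 CPM in the first set, 6445 in the second and 5574 in the remaining cells. Results are therefore given for the 51 remaining cells, and hold for all 76 only where these are named.

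The comparison populations came from the same kept cells. Conventional dendritic cells (DC) were the 94 cells with at least 5 H2-Aa UMIs, fewer than 3 of C1qa, at least 1 of Flt3 and 0 of Ccr7, Fscn1, Cd3e, Cd79a and Cdh5, with 31, 4, 31 and 28 cells in libraries 1 to 4. They were a mixture: 43 had a UMI of Xcr1, a marker of the type 1 lineage, 27 had Cd209a, a marker of the type 2 lineage, 2 had both, 13 were above the macrophage limit and 2 above the fibroblast limit. C1q macrophages were the 3146 cells with at least 5 H2-Aa and 3 C1qa UMIs and 0 of Ccr7, Fscn1, Cd3e, Cd79a and Cdh5, and 2527 of them were in library 4. Folds are given as log2 of the ratio of CPM after 10 CPM was added to both sides, for genes with at least 10 CPM in either population, and a gene is counted as higher or lower at 4-fold. Intervals are exact Poisson 95% intervals and cover counting error only. The genes of the gates are left out of every count.

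As a pool, the 51 remaining cells carried the transcripts of the mature state that their label names. Not every single cell did, since 1 of them had 2 Ccr7, 1 Fscn1, 1 Tbc1d4 and 0 Il4i1 UMIs. In turn, 1 macrophage-list-rich cell had 72 Ccr7 and 18 Tbc1d4 UMIs, so that the limits did not divide the cells by this state. Of 7981 genes compared with conventional DC, 196 (2.46%) were higher and 135 (1.69%) lower. Of 34 listed maturation markers 31 passed the filter, 28 of these were higher and 0 lower, and their median log2 fold was 3.57 against -0.12 over all genes. The list holds genes known from this state and includes Tbc1d4, which came with the label, so its count describes the cells and is no independent evidence. A gene also passes the filter through the population in which it is high, which raises such counts.

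Tbc1d4 was at 1237 CPM (1153 to 1325) in the remaining cells and 94.7 CPM (80.8 to 110) in conventional DC, a log2 fold of 3.57. In libraries 1, 3 and 4 it was at 1973, 1713 and 983 CPM in the remaining cells and 73.6, 181 and 47.2 CPM in conventional DC, so that each library had the same order. A UMI of Tbc1d4 was found in 98.0% of the remaining cells and 46.8% of conventional DC, and in 62.7% and 7.45% once every cell was thinned to 1000 UMIs.

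Il4i1, which encodes a secreted amino acid oxidase that limits T cells, was at 863 CPM against 7.51 CPM, a log2 fold of 5.64, and the log2 folds within libraries 1, 3 and 4 were 5.13, 5.54 and 6.34. Fabp5, a fatty acid carrier, was at 4707 against 63.0 CPM (log2 fold 6.01), Cacnb3, a calcium channel subunit, at 606 against 4.04 CPM (5.46) and Socs2, a suppressor of cytokine signaling, at 794 against 11 CPM (5.26). All 4 genes were also higher within each of the 3 libraries. The receptor OX40 (Tnfrsf4) had 341 against 0.578 CPM, and Cd200, whose product restrains myeloid cells, had 332 against 11.6 CPM. Nudt17 and Mreg had no UMI in conventional DC and were at least 130-fold and 58.6-fold higher than the level of 3 UMIs over that population.

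Not all listed markers behaved alike. Basp1 was already at 496 CPM in conventional DC and at 2052 CPM in the remaining cells, a log2 fold of 2.03. Dnase1l3, a secreted DNase, was at 90.8 against 67.6 CPM (0.38) and was detected in 23.5% and 24.5% of cells. Its log2 folds within libraries 1, 3 and 4 were 0.06, -0.50 and -0.46. Aire, a regulator of antigen display in thymus that some mature DC express, had 1 UMI in all 51 cells, and the secreted factors Wnt5b and Cst6 had none. Ramp3, a receptor partner, had a log2 fold of 3.84 that rested on libraries 1 and 4 (2.64 and 5.79), with 76.5 against 66.5 CPM in library 3. Cd63, a lysosomal tetraspanin, was at 1192 against 34.1 CPM but is no marker of these cells alone, since fibroblast-list-rich cells had 1491 CPM.

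**Figure D2:**
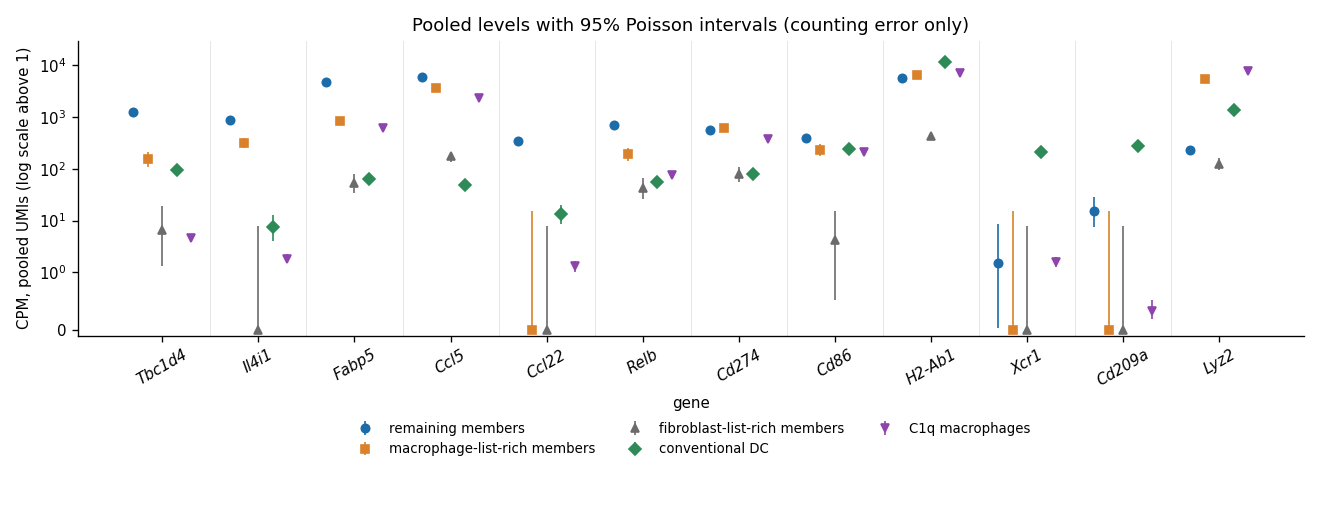
Pooled levels of 12 genes (y axis, CPM, log scale above 1) in the 3 sets of gated cells, conventional DC and C1q macrophages, with vertical lines for exact Poisson 95% intervals that cover counting error only. Tbc1d4, Il4i1 and Ccl22 were highest in the 51 remaining cells (1237, 863 and 337 CPM), Xcr1 and Cd209a in conventional DC (215 and 276 CPM) and Lyz2 in C1q macrophages (7600 CPM).

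The gate as a whole gave another picture. All 76 cells had 279 of 8456 genes higher than conventional DC (3.3%) and 60 lower (0.71%), and 22 of 32 maturation markers higher, with a median log2 fold of 2.64. The fibroblast list had a median log2 fold of 3.03 with 7 of 10 genes higher. In the 51 remaining cells, limited on this list, it was -1.32 with 0 higher and 4 lower. With comparison cells above either limit left out, 0 of 9 were lower (median -0.27), and within library 4, 1 of 8 (median 0.50). Chemokines went from 10 of 21 higher in all 76 cells to 3 of 19 in the remaining cells, and interferon-response genes from 8 of 30 to 2 of 30. Cytokines went from 7 of 18 higher and 0 lower to 3 of 15 and 1. Costimulatory genes went from 2 of 12 higher and 2 lower to 3 of 13 and 0. NF-kB genes went from 3 of 28 higher to 6 of 28, and cell cycle genes from 1 of 18 lower to 6 of 18. Outside the lists, the genes with the largest folds in all 76 cells were Timp1, Cxcl14, Lox, Hp and Serping1, which the 10 fibroblast-list-rich cells carried. Pooled values over the whole gate thus averaged the 3 sets.

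**Figure D3:**
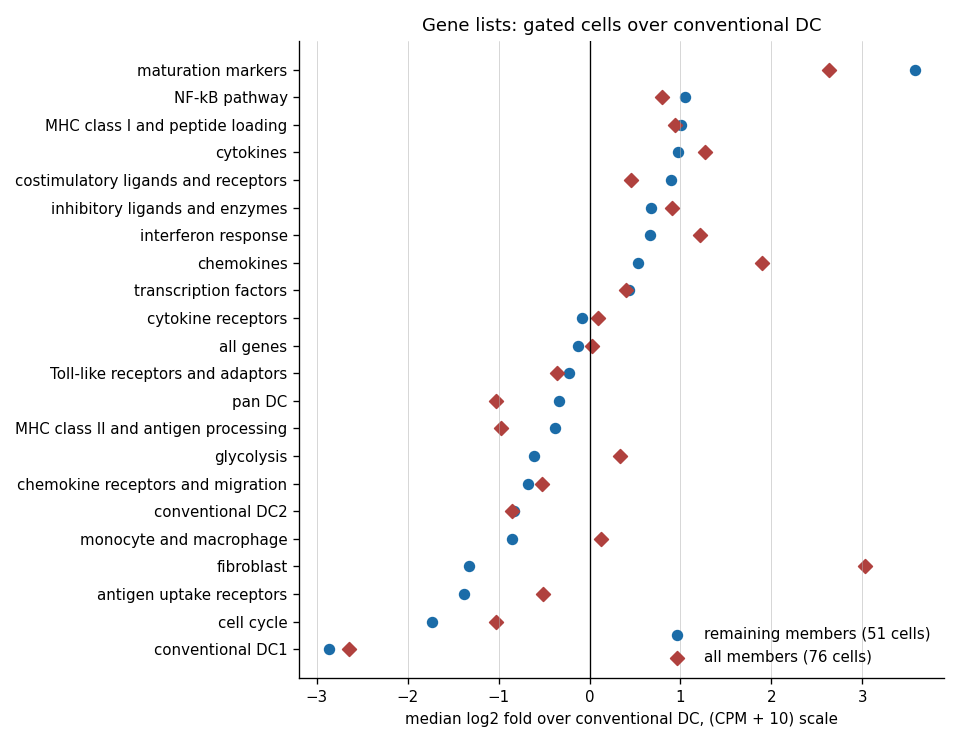
Median log2 fold over conventional DC (x axis, with 10 CPM added to both sides) of the genes of each list that passed the filter, for the 51 remaining cells and for all 76 gated cells. Maturation markers lie at 3.57 and 2.64, conventional DC1 markers at -2.87 and -2.65, and the fibroblast list moves from -1.32 to 3.03 when the 25 other cells are included.

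Many markers of the type 1 lineage were low. Of 16 markers of type 1 DC, 10 were lower than in conventional DC and 0 higher, with a median log2 fold of -2.87. Xcr1, the receptor for the chemokine XCL1, was at 1.54 CPM (1 UMI) against 215 CPM, Wdfy4, needed for cross-presentation, at 9.23 against 444 CPM, and the lysosomal amidase Naaa at 52.3 against 1093 CPM. In each of libraries 1, 3 and 4 these 3 genes had log2 folds between -3.73 and -6.47. Itgae, the integrin CD103, was at 1.54 against 118 CPM. Factors of this lineage were not lower in the pooled cells, where Irf8 was at 1610 against 1192 CPM and Batf3 at 189 against 128 CPM. Irf8 was however at 733 against 941 CPM in library 1 and 199 against 653 CPM in library 3.

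Type 2 markers had 5 of 14 genes lower, 0 higher and a median of -0.83, but within library 4, which held 38 of the 51 cells, 0 were lower, 1 was higher and the median was 0.33. Cd209a was at 15.4 against 276 CPM and the lectin Mgl2 at 6.15 against 124 CPM. These values rested on libraries 1 and 3, since in library 4 conventional DC had no Cd209a UMI and 4.88 CPM of Mgl2. Irf4, a factor of type 2 cells and of DC migration, was at 49.2 against 32.9 CPM, and the calcium-binding protein gene S100a4 at 1847 against 981 CPM. Among single cells, 1 of the 51 had a UMI of Xcr1, 6 of Clec9a and 2 of Cd209a, and 0 had both Xcr1 and Cd209a, whereas 23 had Zbtb46, a factor of the conventional DC lineage, and 41 had Flt3, which also chose the comparison cells. Which lineage the cells came from was not tested.

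Some uptake receptors were also lower. Of 21 receptors that passed the filter 5 were lower and 0 higher, with a median log2 fold of -1.38, among them Clec9a, a receptor for dead cells, with a log2 fold of -2.12. Ly75, the endocytic receptor DEC-205, went the other way at 118 against 22.5 CPM, a log2 fold of 1.98 that did not reach 4-fold. The lipopolysaccharide co-receptor Cd14, which is also on the list that limited the 51 cells, was at 32.3 against 355 CPM, and Tlr3, which senses double-stranded RNA, at 1.54 against 79.7 CPM. These were the 2 of 12 genes of the Toll-like receptor list that were lower, and 0 were higher. Ppt1, a lysosomal thioesterase, was at 33.8 against 581 CPM.

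Of 17 genes of the class II pathway 1 was higher and 2 lower, or 5.88% and 11.8%, with a median of -0.38. The chains H2-Ab1 and H2-Eb1 were at 5574 and 8043 CPM against 11570 and 9841 CPM, and the invariant chain Cd74 at 15579 against 24370 CPM. Larger differences were seen for H2-DMb1, a peptide exchange factor, at 178 against 1073 CPM (-2.52) and for March1, the ligase that removes class II from the surface, at 3.08 against 68.2 CPM (-2.58). March1 had no UMI in the remaining cells of libraries 1 and 3. H2-Eb2 was the gene that was higher, at 87.7 against 2.31 CPM, with 261, 168 and 32.2 CPM in libraries 1, 3 and 4. Reads of class II genes may be shared with near-identical copies, as may those of the class I genes that follow.

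Class I genes had a median log2 fold of 1.01, with 2 of 23 higher at 4-fold and 0 lower. H2-K1 was at 4342 against 1607 CPM and B2m, the light chain, at 4061 against 1599 CPM, with log2 folds of 1.43 and 1.34. The 2 that passed 4-fold were H2-Q6 at 528 against 88.4 CPM and H2-Q7 at 1180 against 235 CPM. Within libraries 1, 3 and 4 the median of the list was 0.62, 0.29 and 0.63. In library 1, 5 of 23 genes of the list were higher at 4-fold and 1 lower, where 294 and 429 of 8133 of all genes were. The 1 lower is near that share. In libraries 3 and 4 no gene of the list was higher at 4-fold, with H2-Q6 at 1.49 and 1.95 and H2-Q7 at 1.48 and 1.63. In library 4 Calr and Pdia3 were lower, where 168 of 7857 of all genes were. Both populations are unevenly spread over libraries, and each of the 3 medians was below the pooled 1.01. The part of the library in the pooled median was not tested. Calr, a chaperone of peptide loading, was at 297 against 1047 CPM, a log2 fold of -1.78, and Hspa5, a chaperone of the stress list, was lower at 218 against 942 CPM.

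Both costimulatory and inhibitory genes were among those higher. Of 13 costimulatory genes 3 were higher and 0 lower (median 0.90), and of 14 inhibitory genes 4 were higher and 1 lower (median 0.68). The higher ones were Tnfrsf4, Tnfrsf9 (the receptor 4-1BB, 115 against 2.31 CPM) and Tnfrsf11a (RANK, 76.9 against 10.4 CPM) in the first list and Il4i1, Cd200, Cd274 and Pdcd1lg2 in the second. Those 4 of the second list were also among the markers used to check the mature DC label, so that they are no separate evidence. Cd40 was at 203 against 47.9 CPM (1.88) and Cd80 at 43.1 against 5.78 CPM (1.75), short of 4-fold. Cd86, the other CD28 ligand, was at 400 against 239 CPM (0.72) and the surface marker Cd83 at 892 against 505 CPM (0.81).

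Cd274, which encodes the checkpoint ligand PD-L1, was at 566 CPM (510 to 627) against 80.9 CPM (68.0 to 95.4). In libraries 1, 3 and 4 it was at 346, 184 and 676 CPM in the remaining cells and 15.8, 16.6 and 200 CPM in conventional DC. Both populations had their highest level in library 4, and the log2 folds were 3.79, 2.86 and 1.71. It was detected in 7 of 8, 4 of 5 and 37 of 38 remaining cells. Pdcd1lg2, which encodes PD-L2, was at 126 against 12.7 CPM, in 3 of 8, 1 of 5 and 27 of 38 cells, with log2 folds of 2.38, 1.07 and 1.97 in libraries 1, 3 and 4. Havcr2 (TIM-3) was the inhibitory gene that was lower, at 7.69 against 82.0 CPM.

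Chemokines divided into a small set that was high and a large set that was not. Of 19 genes 3 were higher and 1 lower, with a median log2 fold of 0.53. Within libraries 1, 3 and 4, 4 of 15, 3 of 14 and 3 of 17 genes were higher and 4, 4 and 2 lower. Over all genes compared there, 294 of 8133, 339 of 8672 and 232 of 7857 were higher and 429, 427 and 168 lower. The medians of the chemokines there were -1.27, -1.03 and -0.06. Ccl5, which attracts T cells and monocytes, had the largest fold of the listed genes apart from those of the gate, 6.62, at 5873 CPM (5688 to 6062) against 49.7 CPM (39.7 to 61.3). It was at 8826, 4452 and 5321 CPM in libraries 1, 3 and 4 against 8.76, 0 and 132 CPM, and in 6 of 8, 4 of 5 and 37 of 38 cells. Single cells ranged from 0 to 666 Ccl5 UMIs, and the highest held 17.4% of the set's Ccl5 UMIs. C1q macrophages also had 2323 CPM of Ccl5.

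Ccl22, a ligand of CCR4 on regulatory T cells, was at 337 CPM against 13.3 CPM (log2 fold 3.90). Libraries 1 and 3 had 936 and 780 CPM and library 4 had 122 CPM, in 5 of 8, 4 of 5 and 18 of 38 cells. No UMI of Ccl22 was found in fibroblast-list-rich or macrophage-list-rich cells. Ccl17, the other CCR4 ligand, was at 30.8 against 3.47 CPM and was found in 3 of 8, 0 of 5 and 2 of 38 cells. Ccl24 was counted as higher at 56.9 CPM against none, from 2 cells of library 4. Cxcl16, a ligand of CXCR6, was at 963 against 237 CPM (1.98), and Ccl9 was lower, at 12.3 against 136 CPM.

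The interferon-induced chemokine Cxcl9, a ligand of CXCR3 on effector T cells, followed the library. In the remaining cells it was at 59.0, 0 and 908 CPM in libraries 1, 3 and 4, and in conventional DC at 10.5, 6.24 and 1269 CPM. It was detected in 37 of 38 remaining cells of library 4 and in 1 of 13 of libraries 1 and 3. The pooled levels of 661 and 456 CPM thus gave a log2 fold of 0.53 and the levels within library 4 one of -0.48. Cxcl10 was at 25.3, 30.6 and 601 CPM against 70.1, 2.08 and 381 CPM. Fibroblast-list-rich cells had 3159 CPM of Cxcl9, macrophage-list-rich cells 4598 CPM and C1q macrophages 2877 CPM, all above the remaining cells.

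**Figure D4:**
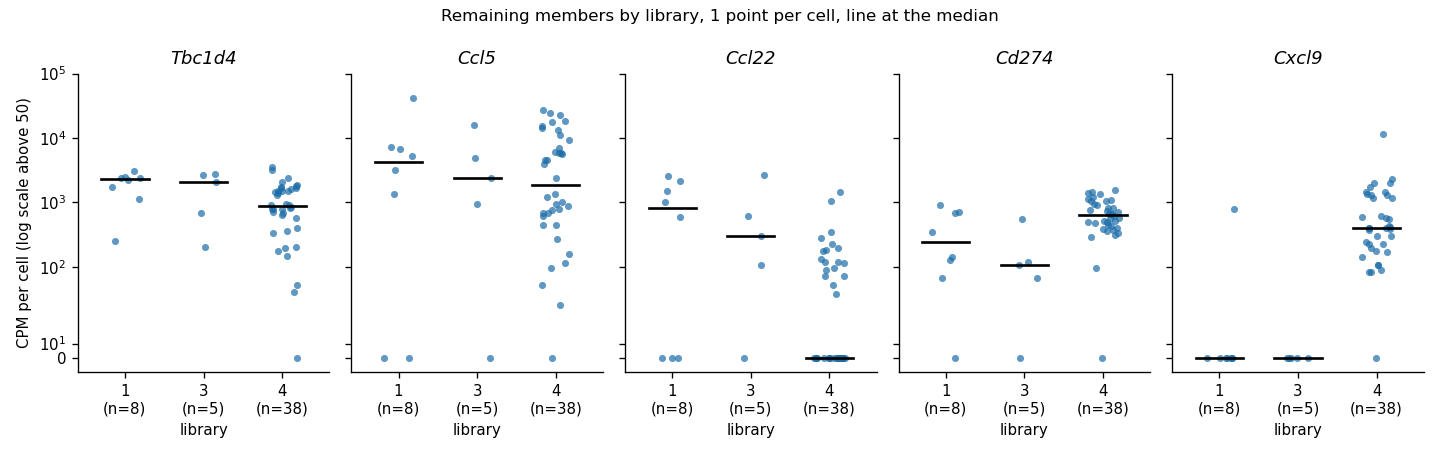
Level per cell (y axis, CPM, log scale above 50 with 0 shown) of 5 genes in the 51 remaining cells, by library (x axis, 8, 5 and 38 cells), with a line at the median. Cxcl9 had UMIs in 37 of 38 cells of library 4 and in 1 of the other 13, whereas Ccl22 had them in 18 of 38 and 9 of 13.

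Interferon-response genes as a list had 2 of 30 higher and 0 lower and a median of 0.67. The 2 genes were the guanylate-binding proteins Gbp5 (243 against 26.6 CPM) and Gbp2 (643 against 146 CPM). Within libraries 1, 3 and 4 the median of the list was -0.11, 0.47 and 0.14, below the pooled value in each.

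Of 27 cytokine genes 22 had a UMI and 15 passed the filter. Il12b, the p40 subunit of interleukins 12 and 23, was at 251 against 13.3 CPM, but 9 of 51 cells carried all of its UMIs and a single cell 44.2% of them. These were 4 of 8 cells of library 1, 0 of 5 of library 3 and 5 of 38 of library 4. Il15, which sustains memory CD8 T cells and natural killer cells, was at 52.3 against 2.89 CPM and its partner Il15ra, which presents it on the cell surface, at 205 against 13.3 CPM. Il1rn, the interleukin 1 receptor antagonist, was at 158 against 31.2 CPM. Il1b was at 1866 against 2049 CPM (-0.13), and Il18 was lower at 3.08 against 57.8 CPM. Together 3 of 15 cytokine genes were higher and 1 lower.

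Among 28 cytokine receptors 5 were higher and 1 lower, with a median of -0.09. Besides Il15ra these were Il2ra (108 against 4.04 CPM), Il7r (163 against 14.4 CPM), Il21r (403 against 75.1 CPM) and Il12rb2 (47.7 against 1.16 CPM), which encode the receptor chains named for their interleukins. In library 3, Il7r had no UMI in the remaining cells and 20.8 CPM in conventional DC, a log2 fold of -1.62 against the pooled direction. Il6ra was lower, at 6.15 against 76.8 CPM.

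Receptors of migration were split. Apart from Ccr7, 2 of 21 genes were higher and 3 lower, with a median of -0.67. Higher were Cxcr5, the receptor for the follicle chemokine CXCL13 (50.8 against 0.578 CPM, in 43.1% of cells), and the membrane protease Mmp25 (73.8 against 1.16 CPM). Lower were Xcr1, Ccr2, the receptor by which monocytes enter inflamed tissue (23.1 against 301 CPM), and the integrin chain Itgb2 (50.8 against 304 CPM). Ccr2 had no UMI in the remaining cells of libraries 1 and 3, and in library 4 it was at 32.2 against 116 CPM, a log2 fold of -1.57 that is short of 4-fold. Gpr183, the oxysterol receptor that positions DC in spleen and nodes, was at 312 against 131 CPM but was found in fewer cells, 41.2% against 54.3%. Actg1, an actin gene, was at 9654 against 5528 CPM.

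The ligand genes of Ccr7 were close to absent from the remaining cells. The 51 cells had 0 UMIs of Ccl19 and 1 of Ccl21a, genes with near-identical copies in this genome that the counting may have split. The fibroblast-list-rich cells had 77.0 CPM of Ccl19.

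Of 28 NF-kB pathway genes 6 were higher and 0 lower, with a median log2 fold of 1.05. Relb was at 712 CPM (649 to 780) against 55.4 CPM (44.9 to 67.7), and at 818, 382 and 732 CPM in libraries 1, 3 and 4 against 49.1, 54.0 and 66.7 CPM. It was found in 98.0% of the remaining cells and 51.1% of conventional DC. Its partner Nfkb2 was at 294 against 51.4 CPM (2.31). The other 4 were Birc2, a ubiquitin ligase of the pathway (449 against 36.4 CPM), Bcl2a1b, an anti-apoptotic target (1754 against 237 CPM), and the adaptors Traf1 (1215 against 285 CPM) and Traf3 (90.8 against 14.4 CPM). Of the canonical subunits, Rel was at 912 against 286 CPM (1.64) and Nfkb1 at 500 against 256 CPM (0.94), both short of 4-fold, as was the inhibitor Nfkbia at 1254 against 684 CPM (0.86).

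Since 6 genes of this pathway were higher, the promoters of the list were searched for the NF-kB-type motif GGGANNTTC on both strands, in RefSeq windows of GRCm38.p6 from 250 bases before to 50 bases after each transcript start. It was the only motif searched, and it occurred in 1209 of 27025 genes (4.47%). Of the 28 pathway genes 23 had a window and 2 held the motif (8.70%), Nfkb2 and Nfkbia. Of the 34 maturation markers 26 had a window and 1 held it (3.85%), Il15ra, and Fscn1 and Tbc1d4 did not hold it. These shares are counts of letters and not of bound sites. The stretches around the motif (capitals) are shown for the 2 pathway genes, of which Nfkb2 was called higher and Nfkbia was not, from chr19:46305680-46305763 (plus strand, motif 225 bases before a start of Nfkb2) and chr12:55492702-55492810 (minus strand, 113 bases before the start of Nfkbia). Both genes held further matches on the other strand that are not printed, and the match of Nfkb2 also lay just after another of its starts.
Nfkb2: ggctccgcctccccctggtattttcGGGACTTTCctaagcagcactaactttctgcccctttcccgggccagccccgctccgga
Nfkbia: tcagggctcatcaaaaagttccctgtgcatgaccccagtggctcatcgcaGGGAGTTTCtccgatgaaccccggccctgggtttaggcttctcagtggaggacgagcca

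Of 41 transcription factors 3 were higher and 1 lower, with a median of 0.43. Within libraries 1, 3 and 4, 7 of 39, 7 of 39 and 6 of 40 were higher and 7, 2 and 2 lower. The pooled share of 2.44% lower is near the 1.69% of all genes. Within libraries 1, 3 and 4, 294 of 8133, 339 of 8672 and 232 of 7857 of all genes were higher and 429, 427 and 168 lower. The 2 of 39 factors lower in library 3 are near its share. Besides Relb the higher factors in the pooled cells were Stat4, which acts below the interleukin 12 receptor (321 against 20.8 CPM), and Spib, an Ets factor (109 against 2.89 CPM). Etv3 and Nr4a3, an Ets repressor and a nuclear receptor linked to DC migration, were at 824 and 649 CPM against 223 and 176 CPM, with log2 folds of 1.84 and 1.82. Zbtb46 was at 66.1 against 22.5 CPM (1.23). Bcl11a, a factor of DC progenitors and plasmacytoid cells, was the one that was lower in the pooled cells, at 1.54 against 47.9 CPM.

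Some cell cycle transcripts were lower. Of 18 genes 6 were lower and 0 higher, with a median of -1.73. Top2a was at 1.54 against 132 CPM, Stmn1 at 15.4 against 211 CPM and Mki67 at 35.4 against 145 CPM, the last with a log2 fold of -1.77 that is short of 4-fold. Top2a had a UMI in 1 of the 51 cells and in 16.0% of conventional DC. Within libraries 1, 3 and 4 the median of the list was -1.44, -1.30 and -2.24.

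Glycolysis genes had a median of -0.61 with 2 of 17 higher. These were Pfkfb3, which raises glycolytic flux (372 against 34.7 CPM), and Eno3, an enolase that is also on the maturation list (240 against 16.8 CPM).

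**Figure D5:**
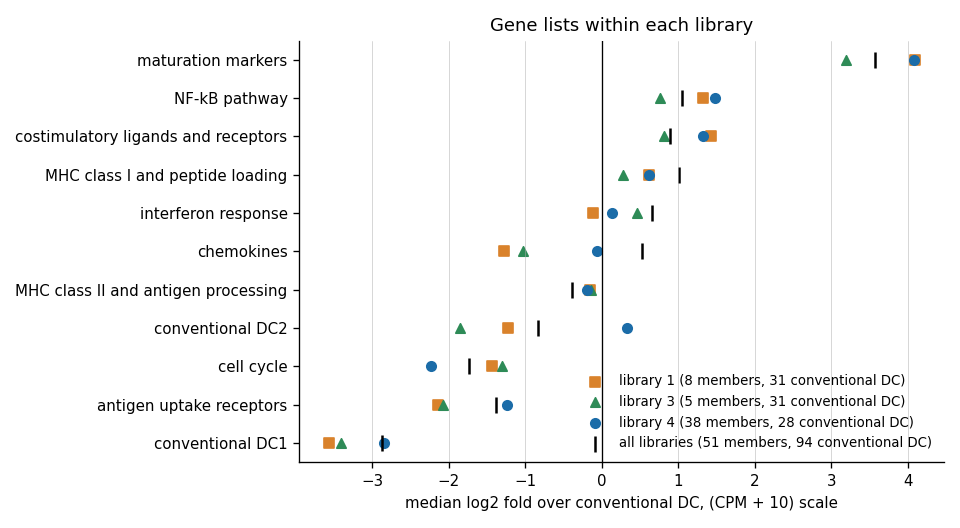
Median log2 fold over conventional DC of the same library (x axis, with 10 CPM added to both sides) for 11 gene lists in the 51 remaining cells, by library, with a bar for all libraries pooled. Maturation markers lie at 4.09, 3.20 and 4.09 in libraries 1, 3 and 4, and the DC2 list lies at -1.22 and -1.85 in libraries 1 and 3 and at 0.33 in library 4.

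Within libraries 1, 3 and 4, the comparison rested on 8 against 31, 5 against 31 and 38 against 28 cells. Maturation markers had medians of 4.09, 3.20 and 4.09, with 29 of 31, 22 of 30 and 26 of 30 higher, where 3.61%, 3.91% and 2.95% of all genes compared in these libraries were higher. NF-kB genes had 1.33, 0.77 and 1.48, costimulatory genes 1.43, 0.81 and 1.33, DC1 markers -3.57, -3.40 and -2.84 and uptake receptors -2.14, -2.08 and -1.23. The median over all genes was -0.27, -0.01 and -0.15, and 429 of 8133, 427 of 8672 and 168 of 7857 of them were lower. The medians of the lists of maturation, NF-kB, costimulation, DC1 and uptake genes had the sign of their pooled median in each of the 3 libraries. Chemokines had medians of -1.27, -1.03 and -0.06, all of the other sign than the pooled 0.53. Single genes did not all follow their list. In library 1, 2 of 11 costimulatory genes were higher and 2 lower, and 2 of 20 uptake receptors were higher and 11 lower. Of the 57 listed genes that were higher in the pooled cells, 12 were short of 4-fold within library 4, namely Cd274, Pdcd1lg2, H2-Eb2, H2-Q6, H2-Q7, Il1rn, Il21r, Gbp2, Traf3, Tcf7, Bcl2l14 and Basp1. Of the 42 that were lower, 15 were short of it there, namely Ccr2, Ccl9, Havcr2, Il18, Cd209a, Mgl2, Clec10a, Clec4a2, Itgam, Cd68, Ms4a6c, Ighm, Dcn, Lum and Mgp. When conventional DC above either limit were also left out, the maturation median was 3.71.

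Against C1q macrophages, the 51 remaining cells had 263 of 7946 genes higher (3.31%) and 307 lower (3.86%), and all 76 cells had 314 of 8356 higher (3.76%) and 98 lower (1.17%). Maturation markers had 26 of 31 higher and a median log2 fold of 3.49. Genes of the pan-DC list had 6 of 9 higher and a median of 2.56, among them Zbtb46 at 66.1 against 0.829 CPM. The monocyte and macrophage list, whose share of UMIs was limited to choose the 51 cells, had 23 of 27 lower and a median of -3.83, with C1qb, a complement subunit, at 63.1 against 4894 CPM, Lyz2 at 226 against 7600 CPM and Csf1r, the receptor for macrophage colony-stimulating factor, with a log2 fold of -4.04 from 485 CPM. The choice of cells fixed the direction of this list, and these values are a description.

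Other gene groups were also compared with macrophages. Uptake receptors had 13 of 21 lower and a median of -2.52, with the Fc receptor Fcgr3 at 27.7 against 896 CPM, while Ly75 was higher at 118 against 1.72 CPM. Chemokines had 11 of 21 lower and 1, Ccl22, higher. Cxcl2, which attracts neutrophils, was at 105 against 2362 CPM, and Ccl2, which attracts monocytes, at 52.3 against 757 CPM. Glycolysis genes had 2 of 17 higher and 7 lower. Class I genes did not stand apart, with 0 of 23 higher and 1 lower (median 0.29), where 3.31% and 3.86% of all genes were. Of 17 class II genes 4 were higher and 3 lower (median -0.18). The NF-kB list had 7 of 28 higher, including Map3k14, the kinase NIK of the non-canonical route, at 271 against 15.1 CPM and Rel at 912 against 130 CPM. Of 40 transcription factors 10 were higher and 3 lower, with Spib at 109 against 0.154 CPM, Id2 at 1594 against 348 CPM and P2ry10, a lysophospholipid receptor of the migration list, at 188 against 2.87 CPM.

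Lists of other cell types were summed in the 51 cells. The fibroblast list and the monocyte and macrophage list had to be low, since cells above the limits on them were left out. The first made up 0.05% of UMIs with Gsn (108 CPM) as its most abundant gene and Pdgfra at 0. The second made up 0.147% with Plac8 (465 CPM) as its most abundant gene, against 0.446% in conventional DC and 3.78% in C1q macrophages. The T cell list made up 0.0349%, with 17 of 19 genes detected, Cd3e and Cd4 at 0 and Il7r on top. Il7r and Tcf7 (40.0 against 0.578 CPM), a factor of T cells and lymphoid progenitors, were the 2 of 8 T cell genes higher than in conventional DC. The natural killer list made up 0.0388% with Klrk1 on top (160 against 142 CPM), and Gzma, a granzyme that was higher, was found in 8 cells, all of library 4, at 69.2 against 2.89 CPM. B cell, endothelial, cardiomyocyte, granulocyte and red cell lists made up 0.00492, 0.0185, 0.00646, 0.00554 and 0.00677% of UMIs, with Cd79a and Cdh5 at 0 by the gate, and the mast cell list had 1 UMI. Plasmacytoid DC genes made up 0.0555% with Siglech at 0, and 1 of 10, Klk1, was lower than in conventional DC, which had it in library 4 only. With comparison cells above either limit left out, 0 of 4 were lower, and within library 4 alone 4 of 9 were, with a median of -1.92. Of 21 monocyte and macrophage genes 3 (Cd14, Lyz2 and Ms4a6c) were lower than in conventional DC, also through the limit on this list, and of 17 genes of dissociation stress 2 (Hspa5 and Fos) were lower. The part of free RNA in these values was not tested.

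Outside the lists, 15 genes with the largest folds over conventional DC were taken among genes with at least 50 CPM in the higher population. They included Glipr2 (864 against 37.5 CPM, in 90.2% of cells), Pcgf5 (738 against 42.7 CPM), a subunit of a Polycomb complex, Rogdi (485 against 39.9 CPM), Pdlim4 (248 against 4.04 CPM), Insl6 (198 against 2.89 CPM), Nrp2, a semaphorin receptor (148 against 6.93 CPM), Adora2a, an adenosine receptor gene (145 against 4.04 CPM), and Cd1d1, which presents lipids to natural killer T cells (128 against 4.62 CPM). The largest folds over all other kept cells were those of Cacna1s (255 against 1.02 CPM), Rogdi (485 against 11.3 CPM), Flrt3 (349 against 5.88 CPM), Siglecg (235 against 2.55 CPM) and Myo1g (852 against 36.5 CPM). Cacna1s encodes the pore of the skeletal muscle calcium channel and was found in 80.4% of the 51 cells and had no UMI in fibroblast-list-rich cells. Conventional DC also had Cacna1s, at 39.9 CPM and in 27.7% of cells, and Flrt3, at 45.6 CPM and in 14.9%. They had Siglecg at 71.0 CPM, in 53.2% of cells, and Myo1g at 151 CPM, in 81.9%. Over conventional DC, Siglecg was short of 4-fold, whereas Cacna1s, Rogdi, Flrt3 and Myo1g were higher. Among the lowest were Ckb, a creatine kinase (55.4 against 1139 CPM), the lysosomal activator Gm2a (84.6 against 1013 CPM), Plbd1 (92.3 against 896 CPM) and Plet1 (0 against 71.0 CPM).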

How the data were processed

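Droplet libraries (10x 3′ chemistry) of the 4 grafts were aggregated by the authors into a single matrix of 30905 genes and 53824 cells, deposited as raw UMI counts per gene and cell. Its header names Cell Ranger 3.0.0, and the submitters' processing notes name CASAVA 1.8, Cell Ranger, Seurat and mm10. Intervals were computed with scipy 1.17.1, doublets were scored with scikit-learn 1.9.0 and plots were drawn with matplotlib 3.10.9, on tables held in pandas 2.3.3 and numpy 2.4.6 (Python 3.11.15).

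Gated cells, comparison cells and gene lists were chosen with earlier results of these data known. Counts were pooled over the cells of a population, mitochondrial genes left out, and scaled to CPM. Total UMIs per library were 96020294 to 166079145, and pools held 650104 (51 remaining cells), 1731346 (conventional DC) and 51892370 (C1q macrophages) non-mitochondrial UMIs. Exact Poisson intervals for levels and Clopper-Pearson intervals for shares, at 95%, and the limit of 3 counts for a count of 0 cover counting error only. Folds, filter and 4-fold line are as given above. With 1 pooled sample no test was run, since neither labels nor files pair a barcode suffix with a graft.

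Doublets were simulated within each library and scored by 50 neighbours, and the top 5% of cells were marked but kept. Genes named are those of the lists, and outside them the 15 with the largest and 10 with the smallest fold over conventional DC and the 5 with the largest fold over other kept cells, at 50 CPM or more. The same rule was applied again to the 51 remaining cells. Scripts were tested on simulated data. Alternatives changed each condition of the gate, the CPM added, the filter, depth, pooling, library and comparison cells. Gene positions are from GENCODE M21, and promoter windows from RefSeq, both of the GRCm38 assembly.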

Additional observations from a re-analysis of the deposited data

How the results depend on the processing

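The cause of each change given here was not tested except where a setting's construction gives it. Without one library at a time, the gate held 14 to 76 cells, and the counts of genes higher and lower at 4-fold ranged from 230 to 319 and 60 to 165 against conventional DC and, for lower genes, from 90 to 346 against C1q macrophages, with the extremes of cells and lower genes without library 4. The gate held 37 cells with C1qa at 0. Genes higher than conventional DC (279) came to 177 with at least 2 Ccr7 UMIs, 184 with at least 3, 755 and 79 with 1 and 50 CPM added, 440 in cells thinned to 1000 UMIs, where 10 CPM is less than 1 UMI, 436 within library 4 and 136 with Zbtb46 in place of Flt3. Genes lower (60) came to 101 with at least 2 Fscn1 UMIs, 94 with at least 3 Ccr7 UMIs, 228 and 15 with 1 and 50 CPM added, 499 thinned, 135 in the 51 remaining cells, 168 in these within library 4 and 127 with comparison cells above either limit also left out. Against C1q macrophages, genes higher (314) came to 816 and 80 with 1 and 50 CPM added. Genes lower (98) came to 154 and 240 with at least 2 and 3 Ccr7 UMIs, 188 with at least 2 Fscn1 UMIs, 238 and 29 with 1 and 50 CPM added, 320 thinned, 307 in the remaining cells and 317 in these within library 4.

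The fibroblast median over conventional DC changed sign to -1.39 with at least 2 Ccr7 UMIs, -1.40 with at least 3, -1.46 without library 4, -1.32 in the remaining cells and -0.27 with comparison cells also trimmed. Without another library it reached 4.41 over conventional DC and 4.98 over C1q macrophages. Over C1q macrophages it was -0.65, -0.62, -0.75, -0.54 and, in remaining cells within library 4, -0.82. All fibroblast-list-rich cells had 1 Ccr7 UMI and lay in library 4, so that these settings remove them or compare within it. For all 76 cells, without one library at a time, the log2 fold over conventional DC was -0.42 to 2.36 for Cxcl10, -1.08 to 4.79 for Ccl2 and -0.12 to 2.11 for Gzma, each lowest without library 4. With Zbtb46 in place of Flt3, Cxcl10 was at -0.56 and Gzma at -4.59. Within library 4, Cd209a was at 0.12 in all gated cells and, in the remaining cells, Cd209a was at 0.28, Mgl2 at 0.32 and Cxcl9 at -0.48. The limits on other lists, at least 3 Ccr7 UMIs and the trimmed comparison cells were chosen after seeing the data. The matrix carries no replicate number that the labels pair with a graft, and grafts were not compared. The differences between gated cells and comparison cells within libraries 1, 3 and 4 are given as values with no test.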
